A study of Mus musculus with 4 samples.

Results

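The clustered protocadherins are cell surface adhesion proteins of the cadherin superfamily that are encoded side by side in the alpha, beta and gamma clusters on mouse chromosome 18. Members were the rows of the deposited table whose platform gene symbol starts with Pcdha, Pcdhb or Pcdhg followed by a digit or by a, b or c. A row is a transcript cluster, which gives 1 summary signal per putative gene. The rule found 29 of 265511 rows, of which 1 was alpha, 26 were beta and 2 were gamma, and it used no measured value. One of the gamma rows carries the symbols Pcdhga12 and Pcdhga10 together and is described apart.

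The samples were hippocampi of 4 male C57BL/6 mice aged 3 months, 2 wildtype and 2 Malat1 Knock-out, which had received no treatment. Each mouse was measured on 1 Affymetrix mouse exon array, and the labels call the arrays of a genotype biological replicates. Each knockout had a wildtype littermate in the study, but the labels give neither which arrays are littermates nor which part of Malat1 the knockout allele lacks. A label calls the RNA neuronal, while the protocols describe dissected whole hippocampi, so in this tissue fewer cells of a type and less RNA per cell cannot be told apart.

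In neurons each cell uses a small set of these genes, chosen by promoter, so that neighbouring cells differ in their surface. The proteins bind their own kind between cells, and this recognition lets sister branches of 1 neuron avoid each other and shapes axon arbors and synapses. Alpha and gamma transcripts join a variable first exon to constant exons shared within the cluster, whereas each beta gene is a single exon of its own. A row of a beta gene can therefore stand for 1 isoform, although the isoforms are close paralogs and probes can share signal between them. Promoter choice depends on CTCF and cohesin, which fold the promoters toward distant enhancers, and unused promoters are kept methylated.

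By platform symbol, the beta cluster was covered in full and the others hardly at all. Only 29588 of the 265511 rows carry a symbol, so rows without one may report on further alpha or gamma genes. Each of the 22 beta genes in RefSeq (assembly GRCm38.p6) had at least 1 row. Only 1 of 14 alpha genes, Pcdha11, and 2 of 22 gamma genes, Pcdhga10 and Pcdhga12, had one. No row was found under the rule for the C-type isoforms Pcdhac1, Pcdhac2, Pcdhgc3, Pcdhgc4 and Pcdhgc5, so these were not analysed here. Pcdhb18 and Pcdhb11 had 3 rows each, which are named by their row numbers.

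The row numbers show where some of these rows sit. On most chromosomes the numbers on this array run first along genes of the plus strand and then along genes of the minus strand. Apart from chromosome 18, for which strands were not used here, 17 chromosomes split into such stretches by gene order and 3 (chromosomes 5, 17 and Y) did not. On the 17, 95.9% of the genes in the first stretch were on the plus strand in RefSeq and 93.4% of those in the second were on the minus strand. The Pcdha11 row and 24 of the 26 beta rows lie in the first stretch of chromosome 18, with the beta rows in the order Pcdhb1 to Pcdhb22. Both gamma rows lie in the second stretch, beside Taf7 and Diaph1. The protocadherin genes are all read in the same direction, so the strand that these gamma rows report on is in doubt. The other 2 beta rows, 6837399 and 6837403, carry the Pcdhb11 name but are numbered among genes of chromosome 15. Across the array, 9.71% of 26435 rows with a known chromosome were out of place in this way. Levels from these 4 rows may not be levels of the genes they are named for.

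Nearly every beta isoform gave signal above the low-signal limit in hippocampus. This limit was 5.70 on the log2 scale, the 25th percentile of all rows with 1 gene symbol, and only rows with a mean at or above it were tested. By that choice most rows pass, 22027 of the 29588 with at least 1 symbol, so passing does not show that a gene is expressed. Among the members the limit was passed by 26 of the 29 rows, namely Pcdha11, both gamma rows and 23 beta rows, which cover 21 of the 22 beta genes. Pcdhb1 was the exception. This gene lacks the conserved promoter element that the other beta genes share, and whether that bears on its signal was not tested. On the log2 scale Pcdhb1 read 5.14 and 4.99 in wildtype and 5.01 and 5.03 in knockout mice. The third Pcdhb18 row (6860203) also lay below the limit on all arrays, between 4.87 and 5.33, and so did Pcdhb11 row 6837399, between 5.44 and 5.62.

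**Figure D1:**
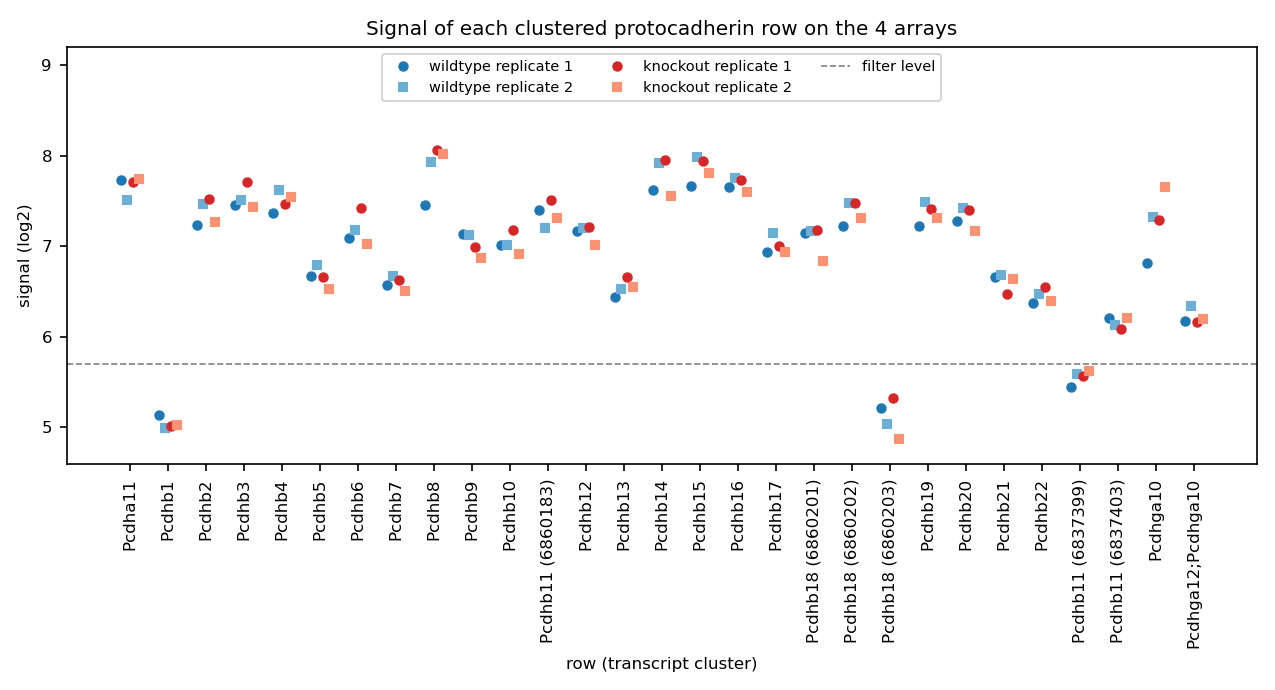
Log2 signal (vertical axis) of each of the 29 rows on each of the 4 arrays (points, wildtype in blue and knockout in red), with the low-signal limit of 5.70 as a dashed line. The alpha row comes first, then the beta rows in chromosome order, the beta rows numbered with chromosome 15 and the gamma rows; Pcdhb1, Pcdhb18 row 6860203 and Pcdhb11 row 6837399 lie below the line.

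Loss of Malat1 was visible on both knockout arrays, and 1 knockout array stood apart from the rest. Malat1 signal was 11.19 and 11.25 in wildtype and 8.53 and 8.70 in knockout arrays, a change of -2.61 ± 0.08 (SE). It was the only one of 22027 tested rows to pass the threshold (limma, adjusted p = 0.0419). That call was lost under several other settings, with the replicate number as a block (adjusted p = 0.0764) and after quantile normalization (0.0533) among them, while the size of the change held. Over these rows the median absolute difference between 2 arrays was 0.083 to 0.091 in the 3 pairs that include knockout replicate 2, and 0.052 to 0.064 in the 3 pairs without it.

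No clustered protocadherin passed the test for a difference between knockout and wildtype hippocampus. The number called was 0 of 26 rows (limma, adjusted p = 1 for each), against a background of 0.00454% of all tested rows. At an unadjusted p under 0.05 there was 1 member, Pcdhb9, which is 3.85% of the 26 and near the background of 3.97%. Of the 26 differences, 14 lay above 0 and 12 below. Their median was 0.01, beside -0.00 over all tested rows, of which 47.2% lay above 0.

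The data bound how large a change in the signal of a row could be. Probes can share signal between paralogs, so this is no bound on the RNA of 1 isoform. For 24 of the 26 rows the 95% interval held no change of 1.5-fold or more, up or down, against a background of 91.7%. The exceptions were Pcdhb8 and the Pcdhga10 row. The 24 include Pcdhb11 row 6837403 and the row of Pcdhga12 and Pcdhga10, which may not report on the genes they are named for. These intervals rest on 2 arrays a group and hold for 1 row at a time. Their median half-width was 0.28 on the log2 scale for the members and 0.18 over all tested rows.

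**Figure D2:**
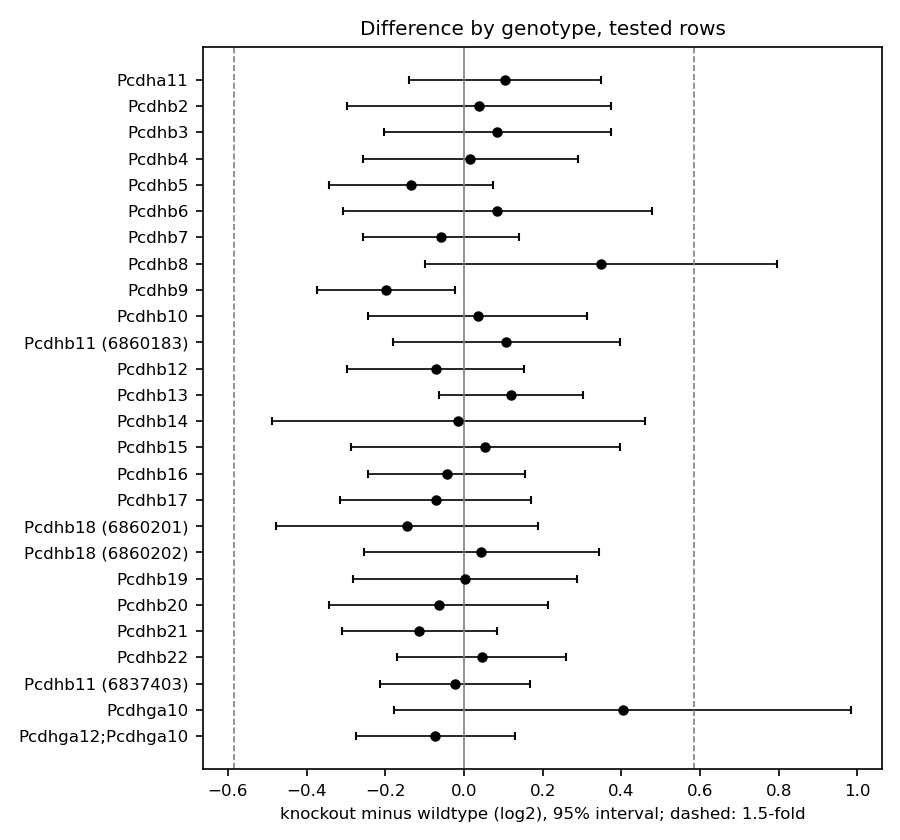
Knockout minus wildtype difference in log2 signal (points, horizontal axis) with its unadjusted 95% interval from limma (bars) for the 26 tested rows; dashed lines mark 1.5-fold. The points lie between -0.20 (Pcdhb9) and 0.40 (Pcdhga10), and only the interval of Pcdhb9 leaves out 0.

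In the alpha cluster, the Pcdha11 row stood at 7.74 and 7.51 in wildtype and 7.71 and 7.75 in knockout arrays. Alpha protocadherins bind tyrosine kinases through their constant cytoplasmic part and guide serotonergic and olfactory axons. Wildtype replicate 2 was the low array and the groups overlapped. The difference was 0.10 (95% interval -0.14 to 0.35), and it was -0.01 without wildtype replicate 2. Whether this row covers the constant exons that all alpha isoforms share is not given in the sources used here.

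Among the beta genes, Pcdhb9 came nearest to a call. Its log2 signal was 7.14 and 7.12 in wildtype and 6.996 and 6.87 in knockout arrays. Both knockout arrays lay below both wildtype arrays. The difference was -0.20 ± 0.07 (SE), with a 95% interval of -0.37 to -0.02, a limma p of 0.0349 and an adjusted p of 1. It ranked 615th by p among the 22027 rows.

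Pcdhb8, which lies next to Pcdhb9, had the largest difference of the cluster. Its signal was 7.46 and 7.93 in wildtype and 8.06 and 8.02 in knockout arrays. The knockout arrays lay above both wildtype arrays, but wildtype replicate 2 was close to them and wildtype replicate 1 was far below. The difference of 0.35 (95% interval -0.10 to 0.80, adjusted p = 1) fell to 0.11 without wildtype replicate 1 and rose to 0.58 without wildtype replicate 2.

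The groups also failed to overlap at Pcdhb5, Pcdhb13 and Pcdhb21. Pcdhb5 was at 6.67 and 6.79 in wildtype and 6.66 and 6.53 in knockout arrays, a difference of -0.14. Pcdhb21 was at 6.66 and 6.68 against 6.48 and 6.64, a difference of -0.11. Pcdhb13 was at 6.44 and 6.53 against 6.66 and 6.55, a difference of 0.12. These values rested in part on 1 array, being -0.073 in Pcdhb5 without wildtype replicate 2, and -0.035 in Pcdhb21 and 0.067 in Pcdhb13 without knockout replicate 1. The gap between the nearest wildtype and knockout arrays was 0.01 in Pcdhb5 and 0.02 in each of the other two. In all, 2 beta rows lay wholly above and 3 wholly below the wildtype arrays, out of 23, against backgrounds of 14.1% and 15.3% of all tested rows.

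The other beta rows overlapped between genotypes. Pcdhb3 (0.09), Pcdhb6 (0.08), Pcdhb15 (0.05), Pcdhb22 (0.05), Pcdhb2 (0.04), Pcdhb10 (0.03), Pcdhb4 (0.02) and Pcdhb19 (0.00) had a difference at or above 0. Pcdhb12 (-0.07), Pcdhb17 (-0.07), Pcdhb20 (-0.06), Pcdhb7 (-0.06), Pcdhb16 (-0.04) and Pcdhb14 (-0.01) had one below 0. Over all 23 beta rows 12 differences were above 0 and 11 below, and the median was 0.00. On both wildtype arrays Pcdhb10 had the identical deposited value, 7.01, as did 28 of all tested rows (0.127%), so its wildtype spread of 0 is not a measure of how alike the animals were.

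None of the rows that share a gene name passed the test, and differences between such rows were not tested. Pcdhb18 row 6860201 stood at 7.14 and 7.16 in wildtype and 7.18 and 6.84 in knockout arrays, a difference of -0.14 in which only knockout replicate 2 was low (0.024 without it). Row 6860202 stood at 7.22 and 7.48 against 7.47 and 7.32, a difference of 0.04. Pcdhb11 row 6860183, in its place on chromosome 18, stood at 7.40 and 7.20 against 7.51 and 7.31, a difference of 0.11, which came to 0.0071 when knockout replicate 1 was left out and to 0.21 when knockout replicate 2 was. The Pcdhb11 row numbered with chromosome 15 (6837403) was at 6.21 and 6.13 against 6.08 and 6.21, a difference of -0.02.

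What the beta rows had in common was a difference between arrays of the same genotype. This pattern was noticed in the data and is given as a description. Each mouse was measured on 1 array, so animal and array cannot be told apart. The rows stand for close paralogs whose probes can share signal, so the counts of rows below are not counts of separate observations. Taking the 22 tested beta rows numbered with chromosome 18, the signal was higher in wildtype replicate 2 than in wildtype replicate 1 in 19, by a median of 0.10. It was higher in knockout replicate 1 than in knockout replicate 2 in 20, by a median of 0.15. Over all tested rows these shares were 59.3% and 57%, with medians of 0.02 and 0.02. Over the 10740 tested rows in the same range of mean signal they were 62.3% and 63.5%.

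Pcdhb14 shows the pattern in full. Its signal was 7.62 in wildtype replicate 1 and 7.55 in knockout replicate 2, but 7.92 in wildtype replicate 2 and 7.96 in knockout replicate 1. Pcdhb15 was likewise lower in the first of these pairs, at 7.66 and 7.81, than in the second, at 7.98 and 7.95. Both orders were seen together in 17 of the 22 rows (77.3%), against 32.7% of all tested rows and 38% of those in the same range of mean signal. The 5 rows without both were Pcdhb4, Pcdhb9, Pcdhb10, Pcdhb11 and Pcdhb21.

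**Figure D3:**
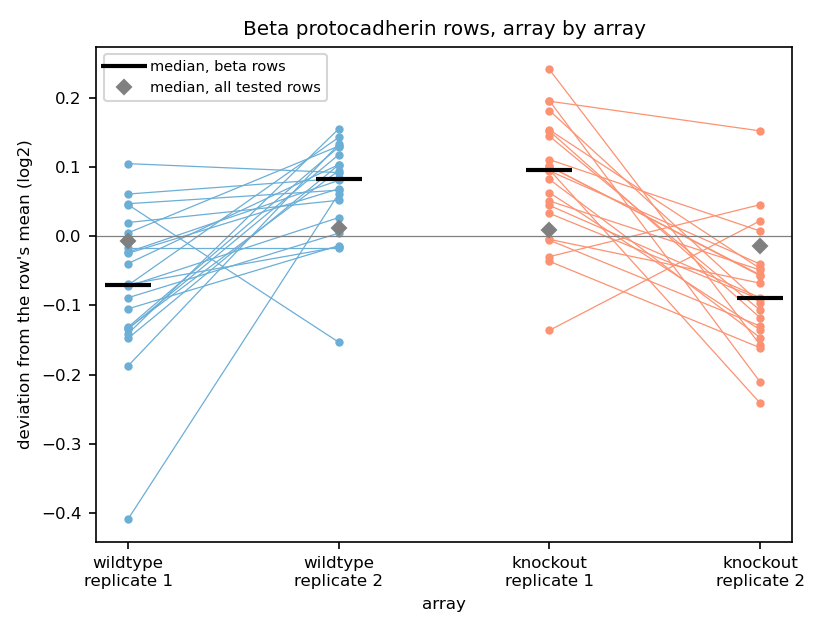
Deviation of each array from the row's mean over the 4 arrays (vertical axis, log2) for the 22 tested beta rows numbered with chromosome 18; a line joins the 2 arrays of a genotype for 1 row, black bars are medians over these rows and grey diamonds medians over all 22027 tested rows. In replicate order, the beta medians are -0.07 and 0.08 for wildtype, and 0.10 and -0.09 for knockout mice, while those of all tested rows lie between -0.01 and 0.01.

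Arrays with the same replicate number therefore differed in opposite directions for this cluster. Knockout replicate 1 exceeded wildtype replicate 1 in 19 of the 22 beta rows, by a median of 0.15. Knockout replicate 2 was below wildtype replicate 2 in 19, with a median difference of -0.17. Over all tested rows the shares in these 2 directions were 58.4% and 58.8%, with medians of 0.02 and -0.03. Over those in the same range of mean signal they were 61.9% and 66.1%. Across the numbers the beta medians were near 0. They were 0.00 for knockout replicate 1 minus wildtype replicate 2 and -0.05 for knockout replicate 2 minus wildtype replicate 1. The direction of the cluster therefore turned with the arrays used. The median over the 23 beta rows was -0.09 without wildtype replicate 1, 0.03 without wildtype replicate 2, -0.09 without knockout replicate 1 and 0.05 without knockout replicate 2, the array that stood apart. The median over all tested rows turned the same way but less far. In the same order it was -0.014, 0.005, -0.016 and 0.007.

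Between the rows of Pcdhb1 and Pcdhb22 lie 25 rows without a gene symbol, 19 of them above the limit. Knockout replicate 1 was above knockout replicate 2 in 17 of the 19, but wildtype replicate 2 was above wildtype replicate 1 in only 5, and both orders were seen together in 5 (26.3%). Among 18 genes next to or between the clusters, such as Taf7 and Hdac3, both orders were seen together in 7 (38.9%), and among 12 non-clustered protocadherins in 5 (41.7%). These shares lie near or below the 32.7% and 38% given above. Among the 18 genes, Sra1 had the same deposited value on all 4 arrays, so it could show neither order. The row of Slc35a4 (6930824) is not numbered with the other rows of that list. Taken singly, each order was seen in 8 of the 12 non-clustered protocadherins (66.7%). Their median was 0.09 for wildtype replicate 2 minus replicate 1 and 0.07 for knockout replicate 1 minus replicate 2. Knockout replicate 2 was below wildtype replicate 2 in 83.3% of them, beside 58.8% of all tested rows. Knockout replicate 1 was above wildtype replicate 1 in 58.3%, beside 58.4%. Mean signals of cell type markers on the arrays, in the order wildtype 1 and 2 and knockout 1 and 2, were 8.62, 8.62, 8.59 and 8.54 for 7 neuronal markers. For 4 oligodendrocyte markers they were 7.81, 7.64, 7.67 and 7.65, and for 3 astrocyte markers 7.93, 7.997, 8.08 and 7.99. Mean signal had the same order of arrays within each genotype as the beta rows in 7 of the 13 lists of markers and related genes, the neuronal and astrocyte markers among them. Some of these orders were near ties. The neuronal markers were at 8.621 and 8.622 on wildtype replicates 1 and 2. The genes next to or between the clusters were at 7.268 and 7.265 on knockout replicates 1 and 2. The part of these lists in the pattern was not tested.

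The Pcdhga10 row had the widest interval of all members. Gamma protocadherins act in dendrite self-avoidance and in the survival of interneurons. The Pcdhga10 row stood at 6.82 and 7.33 in wildtype and 7.29 and 7.66 in knockout arrays. Wildtype replicate 1 was low and knockout replicate 2 was high, and the groups overlapped. The difference was 0.40 (95% interval -0.18 to 0.98, adjusted p = 1), and leaving out 1 array put it between 0.15 (without wildtype replicate 1) and 0.66 (without wildtype replicate 2). The row with the symbols Pcdhga12 and Pcdhga10 stood at 6.17 and 6.34 against 6.17 and 6.19. Its difference was -0.07 (95% interval -0.28 to 0.13), and it was 0.010 without wildtype replicate 2. Both rows stand among genes of the other strand, and which transcripts they report on was not tested.

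Genes that control the clusters showed no difference that passed the test. In the list of CTCF, cohesin and related factors, 0 of 13 tested genes were called and 0 had an unadjusted p under 0.05, with 2 differences above 0, 11 below and a median of -0.05. The cohesin subunit Stag1 (-0.11) and the cohesin regulator Pds5b (-0.10) lay farthest from 0. Ctcf itself, named outside the rule, was at -0.05 (95% interval -0.26 to 0.16), with 7.46 and 7.47 in wildtype and 7.51 and 7.33 in knockout arrays. The values of Ctcf, Stag1 and Pds5b were lowest on knockout replicate 2, without which they stood at 0.041, -0.045 and -0.0098.

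The list on silencing of the clusters had a median of -0.00 over 16 tested genes, 8 on each side of 0, and 0 were called. It is not limited to silencers, since it also holds methylcytosine oxidases, so its median pools genes of unlike action. The methylcytosine oxidase Tet3 (-0.14) and Lrif1 (-0.09), which binds Smchd1, lay farthest below 0, but without knockout replicate 2 they stood at 0.15 and -0.0089. Smchd1, a chromatin protein that represses these clusters, was named outside the rule and stood at -0.03 (95% interval -0.22 to 0.16). Intracellular partners and proteases that process the proteins had a median of -0.01 over 21 tested genes with 0 called. The gamma-secretase subunit Ncstn (0.10) and the small GTPase Rhoa (-0.09) were farthest from 0, with Ncstn at 0.018 without knockout replicate 1.

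Related adhesion genes did not pass the test either. Non-clustered protocadherins had a median of -0.03 over 12 tested genes with 0 called, and Pcdh20 (-0.11) and Pcdh17 (-0.07) were farthest from 0. Without wildtype replicate 2 these stood at 0.0069 and -0.032. Classical and atypical cadherins had a median of 0.00 over 19 tested genes with 0 called. The classical cadherin Cdh4 was at -0.20 and was the only gene of all these lists with an unadjusted limma p under 0.05. Cdh11 had a larger difference, -0.34 (95% interval -0.69 to 0.00), with 8.66 and 8.67 in wildtype and 8.49 and 8.14 in knockout arrays. Leaving out knockout replicate 2 gave -0.17, and leaving out knockout replicate 1 gave -0.52. Genes next to or between the clusters had a median of -0.00 over 18 tested genes with 0 called, and Slc25a2 (-0.09) and Ndufa2 (-0.08) lay farthest from 0. Slc25a2 was at -0.023 without wildtype replicate 1, and Ndufa2 at 0.028 without wildtype replicate 2.

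All 7 neuronal markers, among them the granule cell factor Prox1 and the synaptic gene Snap25, were above the low-signal limit. So were all measured markers of oligodendrocytes (4), microglia (5) and endothelium (4). Passing the limit therefore does not set neurons apart from the other cells of the tissue. In the remaining lists it was passed by 3 of 4 measured astrocyte markers and 3 of 5 choroid plexus markers. Of 4 measured markers of serotonergic and olfactory neurons, 3 passed, namely Slc6a4, Omp and Cnga2, while Tph2 did not. Of 29 tested markers, 2 (6.9%) had an unadjusted limma p under 0.05, beside 3.97% of all tested rows, and neither passed the adjusted threshold. One was Gad2 of inhibitory neurons at -0.17, while Gad1 of the same cells was at 0.00. The other was Ttr of the choroid plexus at -0.54, or -0.29 without wildtype replicate 2, while its markers Kl and Folr1 were at -0.03 and 0.19.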

How the data were processed

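Hippocampal RNA of 2 wildtype and 2 Malat1 Knock-out mice was measured on 4 arrays. The deposited table holds log2 values for 265511 rows, per the range of the values (4.16 to 14.26). How the authors corrected background, normalized and summarized the probes is not stated. Per the submitters' processing notes, the genome was mm9. Per the labels' protocols, biotin-labelled RNA was made from total RNA with a 3′ transcription kit, so evenness along transcripts is unknown. Array medians were 5.59 to 5.63. The number of arrays limits the precision.

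Symbols came from GEO's platform annotation. The 29588 rows with at least 1 symbol were filtered at the 25th percentile (5.70) of the 27090 rows with 1 symbol. The 22027 remaining rows were fitted with limma (version 3.58.1, R 4.3.3; lmFit and eBayes, genotype only, two-sided, Benjamini-Hochberg over all rows, threshold 0.05), with 2 residual and 2.40 prior degrees of freedom. The fit was tested on simulated data with independent rows of equal variance, which the rows of these arrays need not have. Listed genes were read at their brightest row. Symbols were matched to RefSeq by Entrez identifier for order and chromosome.

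The rule for values per array named the C-type isoforms (for which no row was found under the rule), members with an unadjusted p under 0.05 and the 4 largest differences per cluster, then for further members. In each list the 2 largest differences and any with an unadjusted p under 0.05 were named. Members and lists were chosen with earlier results of these data known. Deviations of same-numbered arrays correlated at 0.10 over all tested rows, and no label ties numbers to litters, so pairing was an alternative. Others were normalization, filter, trend, choice of rows and leaving out each array.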

Additional observations from a re-analysis of the deposited data

How the results depend on the processing

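The number of protocadherin rows called stayed at 0 with the replicate block, with either rescaling or filter, with an intensity trend, with either other choice of rows and without each array. Rows with an unadjusted p under 0.05 numbered 2 with the replicate block, 0 with all rows of the table fitted, and 0 to 3 with 1 array left out, against 1; no other setting moved this count, and the block changed no protocadherin call. The gamma median was 0.40 with the filter at the 50th percentile and with 1 row per gene, each of which leaves out the row with several symbols, and ran from -0.00 to 0.33 without 1 array. The beta median ran from -0.09 to 0.05 and the alpha value from -0.01 to 0.21 without 1 array. Restricting the beta rows to those numbered with chromosome 18, an alternative chosen after seeing the data, gave a beta median of 0.01. The order of arrays within genotypes was also read after quantile normalization and after centring, chosen after seeing the data, and then held in 20 and 20 of the 22 beta rows under each, while the shares over all tested rows rose to between 62% and 68.6%.

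The change of Malat1 kept its size but lost its call under several settings. It was -2.61 with the replicate block (adjusted p = 0.0764), without a filter (0.0799), with the intensity trend (0.0532) and with all rows fitted (0.849), and -2.57 after quantile normalization (0.0533). Without 1 array it ran from -2.70 to -2.52, at adjusted p from 0.335 to 0.560. All these p are limma's.

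Quantile normalization moved Pcdhb19 from 0.0024 to -0.0031 and centring moved it to -0.013. With 1 array left out, differences that changed sign ran from -0.0073 to 0.21 for Pcdha11, -0.10 to 0.17 for Pcdhb10, -0.085 to 0.039 for Pcdhb11 row 6837403, -0.17 to 0.027 for Pcdhb12, -0.22 to 0.19 for Pcdhb14 and -0.11 to 0.21 for Pcdhb15. Further differences ran from -0.11 to 0.023 for Pcdhb16, -0.18 to 0.035 for Pcdhb17, -0.31 to 0.024 for Pcdhb18 row 6860201, -0.081 to 0.17 for Pcdhb18 row 6860202, -0.13 to 0.13 for Pcdhb19 and -0.088 to 0.16 for Pcdhb2. The rest of the cluster members that turned ran from -0.18 to 0.050 for Pcdhb20, -0.033 to 0.12 for Pcdhb22, -0.054 to 0.22 for Pcdhb3, -0.11 to 0.14 for Pcdhb4, -0.11 to 0.28 for Pcdhb6, -0.12 to 0.0042 for Pcdhb7 and -0.16 to 0.010 for the row of Pcdhga12 and Pcdhga10. Among listed genes, values ran from -0.14 to 0.041 for Ctcf, -0.19 to 0.028 for Ndufa2, -0.23 to 0.0069 for Pcdh20, -0.099 to 0.042 for Smchd1 and -0.42 to 0.15 for Tet3. With 1 array left out, a single array stands for its genotype and is assumed to vary like the other group. The cause of these changes was not tested.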
